A study of Homo sapiens with 8 samples.

Results

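This account follows 9 human genes that encode replacement histones or factors for histone mRNA in the myeloma lines U266/LR7 and U266/s. The histone genes are H1-10, H2AX, H2AZ1, H2AZ2, MACROH2A1, H3-3A and H3-3B. The mRNA factors are SLBP and NPAT. Members were taken by symbol from the platform annotation of the arrays, using a transcript cluster (the array's probe set for a gene) only where it carries that single symbol. By this rule 8 of the 9 genes had a cluster, out of 18417 genes measured. H3-3A is represented by 4 clusters, each of which also carries H3P6, so no value is given for it.

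U266 is an established human multiple myeloma cell line, U266/s the parent and U266/LR7 its derivative that resists melphalan. Each line was profiled on 4 one-colour Affymetrix arrays, with 1 array per condition. The conditions were melphalan (100 µM, a DNA-alkylating drug) alone, melphalan with oligonucleotides that inhibit miR-221 and miR-222 (100 nM), the inhibitors alone, and a negative control oligonucleotide with no drug. RNA was collected 12 h after treatment. The transfection tag of both melphalan-alone arrays reads none, although the protocol text can be read otherwise, so they may differ from the control arrays in transfection as well as in drug. The labels name no clone, passage or separate culture, so p-values cover the variation among the 8 arrays alone, and that may be technical. With 1 array per condition, the spread behind each p-value comes from how the inhibitor differences vary between lines and drug states. It is not a spread between replicates, and any transfection difference of the melphalan-alone arrays may enter it. The test used, limma, also draws this spread toward that of genes with similar signal (median of 8.22 prior against 3 residual degrees of freedom). Each SE and p-value therefore rests in large part on other genes.

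Values are log2 signals as deposited. Differences come from 1 limma fit over all 8 arrays with terms for line, melphalan, their interaction and inhibitors, and a gene was called at a Benjamini-Hochberg adjusted p below 0.05 over all 18417 genes. Plasma cell markers had 10 of 10 genes above the lower quartile of gene means (5.96) in both lines, including SDC1 and TNFRSF17. Stromal and epithelial markers had 4 of 5 above it in U266/LR7 and 5 of 5 in U266/s. T and NK cell markers had 2 of 5 and 1 of 5. The quartile alone therefore does not separate cell types. Mean signals per array were 10.1 to 10.9 over plasma cell markers and 6.35 to 7.03 over stromal and epithelial markers. Of 4 measured B cell markers, MS4A1 and CD22 lay below that quartile in both lines and PAX5 and BLK above it. BLK rose with melphalan in U266/s by 0.69 ± 0.14 (limma adjusted p = 0.00263). Of the 10 plasma cell markers, melphalan gave 0 higher and 2 lower in U266/LR7, and 1 higher and 5 lower in U266/s. Of all genes 3.02% were higher and 3.61% lower in U266/LR7, and 18.4% higher and 24.9% lower in U266/s. The interquartile range of gene signals was 2.75 and 2.80 on the U266/s melphalan arrays without and with inhibitors, against 3.08 to 3.31 on the other 6 arrays. The part of this narrower range in the results was not tested, and values after quantile or cyclic loess normalization are given where they change a call. RNA of whole cultures was measured, so fewer cells of a type and less RNA per cell cannot be told apart.

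Most histone protein is made during DNA replication from clustered genes whose mRNAs end in a stem-loop instead of a poly(A) tail. NPAT, a substrate of cyclin E and CDK2, activates transcription of those clusters, and SLBP binds the stem-loop and accompanies the mRNA through processing and translation. Replacement variants are made outside these clusters, largely throughout the cell cycle, and are placed into chromatin by dedicated chaperones. H2AX is the variant whose tail is phosphorylated around DNA double-strand breaks.

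The promoter windows of the 4 members that changed with melphalan in U266/s are shown because those members carry the main result. Each window runs from 250 bases before to 50 bases after the annotated start, on the strand of the gene, from RefSeq (GRCh38.p14). Capitals mark every match to CCAAT or TTTGAA on either strand (ATTGG and TTCAAA are their reverse complements).
NPAT (chr11:108222589-108222888, minus strand): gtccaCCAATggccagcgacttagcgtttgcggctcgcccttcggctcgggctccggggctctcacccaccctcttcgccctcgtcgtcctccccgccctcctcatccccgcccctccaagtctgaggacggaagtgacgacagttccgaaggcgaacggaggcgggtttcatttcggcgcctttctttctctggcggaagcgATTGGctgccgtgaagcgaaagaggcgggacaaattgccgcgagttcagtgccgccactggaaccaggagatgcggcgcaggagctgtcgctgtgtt
H3-3B (chr17:75779730-75780029, minus strand): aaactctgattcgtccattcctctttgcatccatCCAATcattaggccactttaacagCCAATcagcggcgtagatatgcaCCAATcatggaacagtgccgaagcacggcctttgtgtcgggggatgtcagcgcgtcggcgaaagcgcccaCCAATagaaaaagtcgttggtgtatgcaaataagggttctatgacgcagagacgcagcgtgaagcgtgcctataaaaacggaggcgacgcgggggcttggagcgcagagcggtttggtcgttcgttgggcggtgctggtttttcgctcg
H2AX (chr11:119095416-119095715, minus strand): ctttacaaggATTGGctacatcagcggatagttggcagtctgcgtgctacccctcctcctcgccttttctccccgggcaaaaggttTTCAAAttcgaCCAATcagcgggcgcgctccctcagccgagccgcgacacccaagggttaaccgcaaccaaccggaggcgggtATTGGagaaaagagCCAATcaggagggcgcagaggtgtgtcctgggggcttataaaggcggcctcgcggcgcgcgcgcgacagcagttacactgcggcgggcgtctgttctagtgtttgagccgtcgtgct
H1-10 (chr3:129316237-129316536, minus strand): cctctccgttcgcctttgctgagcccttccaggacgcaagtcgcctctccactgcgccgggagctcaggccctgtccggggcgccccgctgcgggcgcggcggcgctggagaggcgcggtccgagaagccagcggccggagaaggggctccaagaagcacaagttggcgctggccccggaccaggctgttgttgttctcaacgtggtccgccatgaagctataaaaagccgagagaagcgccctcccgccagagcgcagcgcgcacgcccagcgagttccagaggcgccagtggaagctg
All 9 members had a window. CCAAT was found on either strand in 6 of 9, namely H2AX, H2AZ1, H2AZ2, H3-3A, H3-3B and NPAT, against 35.7% of all 27305 windows of this length. The TTTGAA word occurred in H2AX and H2AZ1, against 15.4% of all windows. The 8-letter words TTTGGCGC, TTTCCCGC, TTTCGCGC and TTTGCCGC together occurred in 3.33% of windows and in 0 of the 9. TGACGTCA occurred in 1.98% of windows and in 0 of the 9. None of these matches overlapped another in the printed windows. Of the 3 members that rose with melphalan in U266/s, H3-3B and H2AX each had 4 CCAAT matches in the window and H1-10 had none.

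NPAT fell with melphalan in U266/s, and its response differed between the lines. NPAT had 9.32 and 9.34 log2 units on the U266/LR7 melphalan arrays without and with inhibitors, against 9.03 and 9.18 on the matching arrays without melphalan. In U266/s it had 6.99 and 7.36 with melphalan, against 9.06 and 8.78 without. The 2 U266/s melphalan arrays are the low ones, and the other 6 arrays lie within a narrow band. Both low values stood above the lower quartiles of gene signals on their arrays, 6.02 and 5.9998.

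In U266/s, NPAT fell by 1.74 ± 0.17 log2 units (SE), a 3.35-fold decrease (limma adjusted p = 1.61e-05). Its means were 7.18 ± 0.26 with melphalan and 8.92 ± 0.20 without (SD, n = 2 arrays each). In U266/LR7 the difference was 0.22 ± 0.17 (adjusted p = 0.545, 95% interval -0.15 to 0.59). The melphalan by line interaction itself was 1.97 ± 0.24 (adjusted p = 0.000287). The pairs with and without inhibitors gave -1.42 and -2.07 in U266/s, and both arrays of the first pair were transfected. The fall measured -1.65 after quantile and -1.54 after cyclic loess normalization, and remained called. As a description, each member's profile over the 8 arrays was compared only with genes whose range over the arrays was at least its own. Among those, the genes most like NPAT were PIP4P2, PIK3R4 and UGCG, with Pearson r of 0.997, 0.995 and 0.995. The same rule holds for the genes most like the other members. The arrays fall into lines and drug states, and all genes found this way share that layout.

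NPAT starts 429 bases from ATM on the opposite strand in RefSeq, and ATM is the kinase that phosphorylates H2AX at DNA breaks. ATM had 8.004 and 7.66 on the U266/LR7 melphalan arrays without and with inhibitors, against 7.73 and 8.42 on the matching arrays without melphalan. In U266/s it had 6.48 and 6.25 with melphalan, against 7.77 and 7.57 without. Again the U266/s melphalan arrays alone are low, while the U266/LR7 pairs moved in opposite directions. ATM fell by 1.31 ± 0.22 in U266/s (limma adjusted p = 0.000621) and had a difference of -0.25 ± 0.22 in U266/LR7 (adjusted p = 0.632). Its interaction was 1.06 ± 0.31 (adjusted p = 0.0283, and 0.0503 after cyclic loess normalization). Of the neighbours on the opposite strand within 1000 bases of a member's start, ATM was the one with a cluster of its own.

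**Figure D1:**
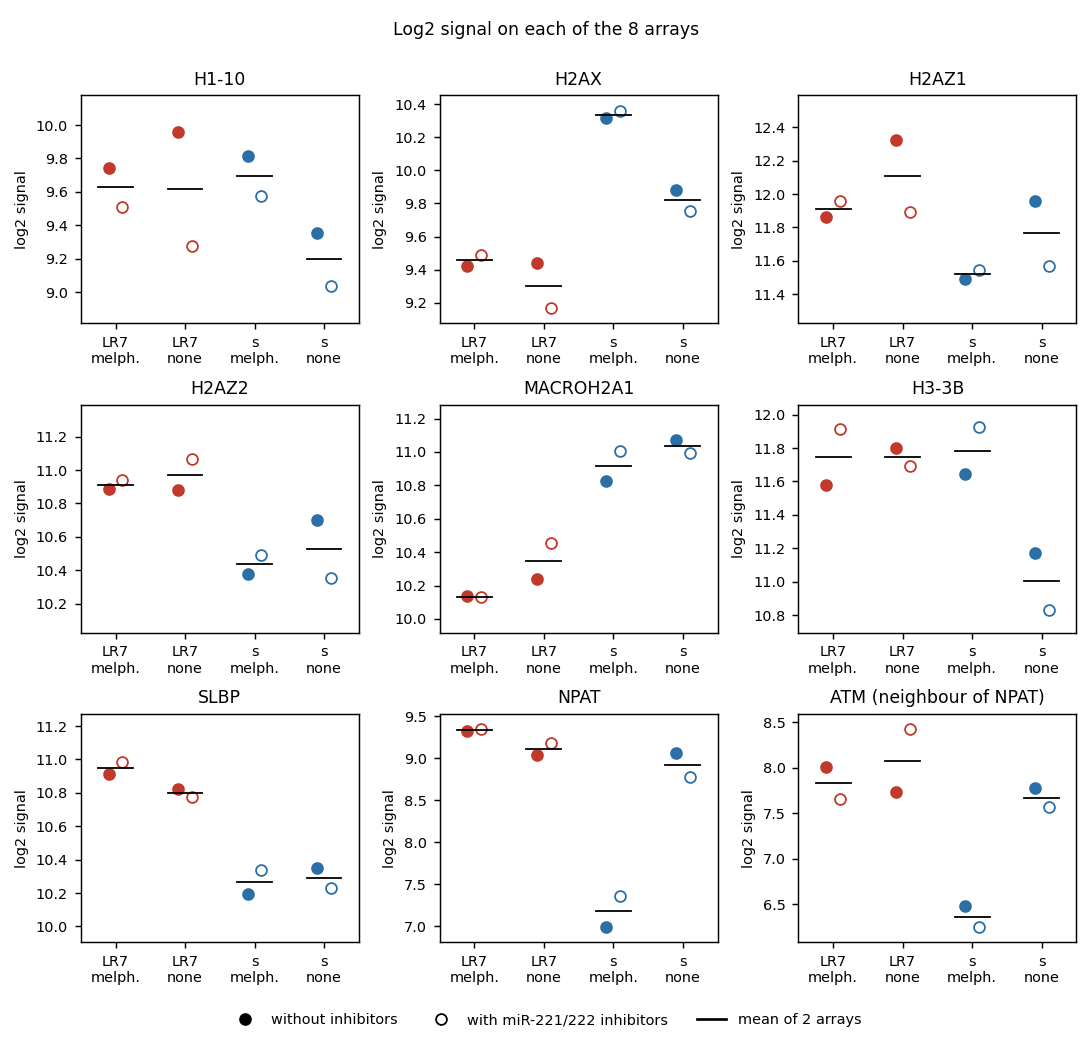
Log2 signal (vertical axis, scaled separately in each panel) of the 8 measured members and of ATM on each of the 8 arrays. Filled points are arrays without and open points arrays with the microRNA inhibitors, and the bar is the mean of 2 arrays. NPAT and ATM are low on the U266/s melphalan arrays, SLBP and MACROH2A1 separate the lines, and H3-3B is low on the U266/s arrays without melphalan.

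SLBP, the stem-loop binding protein gene, differed between the lines and showed no called change with melphalan. It had 10.91 and 10.98 on the U266/LR7 melphalan arrays without and with inhibitors and 10.83 and 10.77 without melphalan. In U266/s it had 10.20 and 10.34 with melphalan and 10.35 and 10.23 without. All 4 U266/LR7 arrays lie above all 4 U266/s arrays. The melphalan difference was 0.15 ± 0.13 in U266/LR7 (95% interval -0.13 to 0.43) and -0.02 ± 0.13 in U266/s (95% interval -0.30 to 0.26). SLBP was higher in U266/LR7 by 0.68 ± 0.13 under melphalan (limma adjusted p = 0.00105) and by 0.51 ± 0.13 without it (adjusted p = 0.00856). NPAT, the other histone mRNA factor, stood at 2.15 ± 0.17 between the lines under melphalan (adjusted p = 2.24e-06) and at 0.19 ± 0.17 without it (adjusted p = 0.461).

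H3-3B, H2AX and H1-10 rose with melphalan in U266/s. Beside NPAT they made 4 of 8 members called there, while 43.4% of all genes were called. Of the members 3 were higher, against 18.4% of all genes, and 1 was lower, against 24.9%. The total share of members is close to the background. Of all genes called there, 42.5% were higher, against 53.4% after quantile normalization. In U266/LR7 limma called 0 of 8 members, and 0 of 8 had an unadjusted p below 0.05. Of all genes 6.62% were called there (3.02% higher and 3.61% lower), and 20.1% had an unadjusted p below 0.05. Of the genes called in U266/LR7, 45.6% were higher, against 30.6% after cyclic loess normalization. Arrays with and without melphalan did not overlap in 3 of 8 members in U266/LR7 and in 5 of 8 in U266/s, against 51.2% and 73.3% of all genes.

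The interaction was called for 2 of 8 members, against 23.9% of all genes. It was positive in NPAT, against 17.9% of all genes, and negative in H3-3B, against 5.99%. Positive calls made 74.9% of the genes called, against 63.4% after median centring, 55.1% after quantile and 61.1% after cyclic loess normalization.

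H3-3B encodes the replacement histone H3.3, which chaperones such as HIRA and the DAXX-ATRX pair place into chromatin. It had 11.58 and 11.92 with melphalan and 11.80 and 11.69 without in U266/LR7. In U266/s it had 11.65 and 11.92 with melphalan, against 11.17 and 10.83 without. The U266/s arrays without melphalan are the low ones, and the U266/s melphalan arrays overlap those of U266/LR7. H3-3B rose in U266/s by 0.78 ± 0.16 (1.72-fold, limma adjusted p = 0.00213). In U266/LR7 the difference was 0.00 ± 0.16 (95% interval -0.35 to 0.35), and the interaction was -0.78 ± 0.22 (adjusted p = 0.0260). The interaction of H3-3B was no longer called when any of 4 arrays was left out. These were the U266/LR7 control and melphalan arrays (adjusted p = 0.0719 and 0.156) and the U266/s inhibitor and combination arrays (adjusted p = 0.135 and 0.113). It was also not called when all transcript clusters were tested (adjusted p = 0.0699). The genes most like H3-3B over the 8 arrays were SNORD116-24, PFN1P2 and NGRN (Pearson r of 0.962, 0.958 and 0.956).

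H2AX had 9.42 and 9.49 with melphalan and 9.44 and 9.17 without in U266/LR7. In U266/s it had 10.31 and 10.36 with melphalan, against 9.88 and 9.76 without. The U266/s values lie above all U266/LR7 values, and the melphalan pair is highest. H2AX rose in U266/s by 0.52 ± 0.14 (1.43-fold, limma adjusted p = 0.0129), with a difference of 0.15 ± 0.14 in U266/LR7 (adjusted p = 0.650). The difference between these responses was not called (-0.36 ± 0.20, adjusted p = 0.224), but it was after quantile (-0.70) and cyclic loess normalization (-0.74). The genes most like H2AX over the 8 arrays were RPS24, MAZ and E2F1 (Pearson r of 0.997, 0.993 and 0.990).

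H1-10 encodes a linker histone that is produced outside the replication clusters. It had 9.74 and 9.51 with melphalan and 9.96 and 9.28 without in U266/LR7, and 9.81 and 9.58 with melphalan against 9.36 and 9.04 without in U266/s. On every pair of arrays matched for line and drug, the array with inhibitors is the lower one. H1-10 rose with melphalan in U266/s by 0.50 ± 0.15 (limma adjusted p = 0.0216), with 0.01 ± 0.15 in U266/LR7 (adjusted p = 0.982) and an interaction of -0.49 ± 0.22 (adjusted p = 0.130). That interaction was called after quantile (-0.84) and cyclic loess normalization (-0.86), and without the U266/LR7 inhibitor array (-0.70, adjusted p = 0.0186). The calls of H2AX and H1-10 were lost when single U266/s arrays were left out, while the differences stayed of similar size. Without the control, inhibitor or combination array, H2AX stood at 0.55, 0.48 and 0.44 (adjusted p of 0.0791, 0.0883 and 0.0980). H1-10 stood at 0.47, 0.53 and 0.41 without the same arrays (adjusted p of 0.156, 0.0807 and 0.139), and at 0.59 without the U266/s melphalan array (adjusted p = 0.0529).

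The H2A.Z genes and MACROH2A1 had no called change with melphalan in either line. H2AZ1 and H2AZ2 encode nearly identical forms of H2A.Z, a variant placed at promoters by the SRCAP and EP400 complexes. For H2AZ1 the melphalan difference was -0.20 ± 0.14 in U266/LR7 and -0.24 ± 0.14 in U266/s, and for H2AZ2 it was -0.06 ± 0.15 in U266/LR7 and -0.09 ± 0.15 in U266/s. MACROH2A1, whose protein carries a macrodomain beside its H2A part, stood at -0.21 ± 0.13 in U266/LR7 and -0.12 ± 0.13 in U266/s. The 95% intervals of these 6 differences reached at most -0.56 at the low end and 0.26 at the high end. Changes within those bounds could not be told from 0 with 8 arrays. The interactions of the H2A.Z genes and MACROH2A1 lay between -0.09 and 0.05, with adjusted p of 0.759 to 0.928. The melphalan differences of H2AZ1 were not alike between pairs. Without inhibitors they were -0.46 in U266/LR7 and -0.46 in U266/s, where the arrays may also differ in transfection. With inhibitors they were 0.07 and -0.02.

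**Figure D2:**
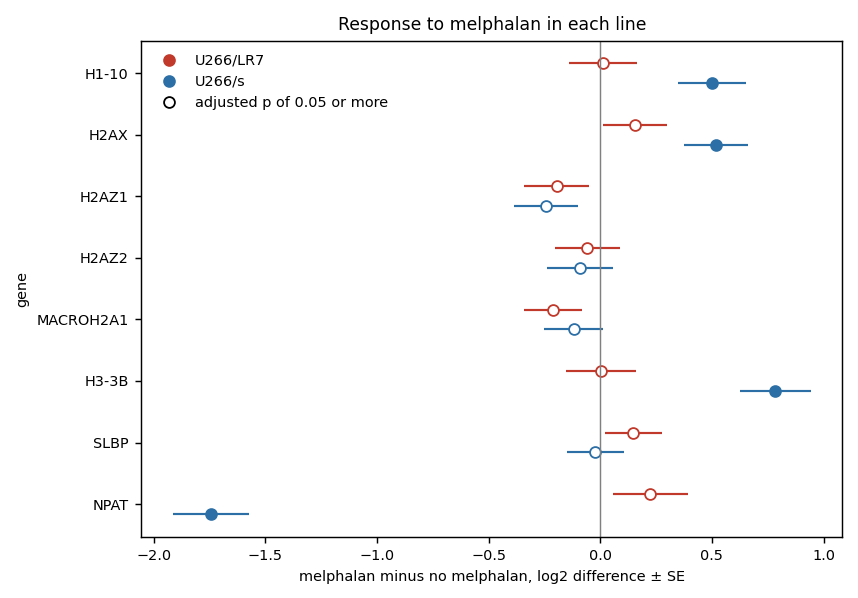
Log2 difference between arrays with and without melphalan (horizontal axis, bars are the SE) for each measured member (vertical axis), with U266/LR7 above U266/s. Filled points passed an adjusted p of 0.05. NPAT lies at -1.74 in U266/s and 0.22 in U266/LR7, and H3-3B, H2AX and H1-10 lie right of 0 in U266/s.

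Between U266/LR7 and U266/s without melphalan, limma called 5 of 8 members, against 34.7% of all genes. Of these 3 were higher in U266/LR7, against 16.9% of all genes, and 2 were lower, against 17.8%. The higher genes were H3-3B by 0.74 ± 0.16 (limma adjusted p = 0.00307), SLBP, and H2AZ2 by 0.44 ± 0.15 (adjusted p = 0.0347). The lower genes were MACROH2A1 by -0.69 ± 0.13 (adjusted p = 0.00145) and H2AX by -0.52 ± 0.14 (adjusted p = 0.0145). H1-10 had a difference of 0.42 ± 0.15 (adjusted p = 0.0538), H2AZ1 of 0.34 ± 0.14 (adjusted p = 0.0931). Without the U266/s inhibitor array, 1 of the 8 members was called, MACROH2A1 (H3-3B 0.49, adjusted p = 0.0826, SLBP 0.42, adjusted p = 0.125). H2AX was also not called without the U266/LR7 inhibitor or the U266/s control array (adjusted p = 0.0824 and 0.119). H2AZ2 was not called without the U266/LR7 melphalan, combination or inhibitor array (adjusted p = 0.0551, 0.0551 and 0.182), or when all transcript clusters were tested (adjusted p = 0.0741).

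MACROH2A1 had the lower signal in U266/LR7 on every array. It had 10.14 and 10.13 with melphalan and 10.24 and 10.45 without in U266/LR7, against 10.83 and 11.003 with melphalan and 11.07 and 10.996 without in U266/s. The lines do not overlap in MACROH2A1, nor in SLBP, H2AX or H2AZ2. This is 4 of 8 members, against 31.1% of all genes. The 4 line differences of MACROH2A1, matched for treatment, ran from -0.87 to -0.54. Its most similar profiles over the 8 arrays were those of FAM120A, GNB1 and KSR1 (Pearson r of 0.994, 0.992 and 0.988), and those of SLBP were PRXL2A, POTEA and ZNF44 (0.997, 0.992 and 0.992).

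Under melphalan limma called 6 of 8 members between the lines, against 51.7% of all genes. In U266/LR7 4 were higher, against 27.7% of all genes, and 2 were lower, against 24%. NPAT was higher by 2.15, SLBP by 0.68, H2AZ2 by 0.48 ± 0.15 (limma adjusted p = 0.0182) and H2AZ1 by 0.39 ± 0.14 (adjusted p = 0.0411). H2AX was lower by -0.88 ± 0.14 (adjusted p = 0.000371) and MACROH2A1 by -0.78 ± 0.13 (adjusted p = 0.000462). H3-3B stood at -0.04 ± 0.16 (adjusted p = 0.858). These comparisons share arrays with those of melphalan within each line, so they are not independent of them. Those of H2AZ1 and H2AZ2 under melphalan were 0.20 and 0.20 with quantile normalization, and 0.10 and 0.12 with cyclic loess, none of them called. H2AZ1 was also not called after median centring, without the intensity trend or with all transcript clusters tested (adjusted p = 0.0725, 0.0682 and 0.0896), so its call was lost in 5 of 9 alternative settings. H2AZ2 was also not called without the U266/LR7 melphalan or combination array or the U266/s melphalan array (adjusted p = 0.0814, 0.123 and 0.129). H2AZ1 was not called without the U266/LR7 combination, U266/s melphalan, U266/s control or U266/s inhibitor array (adjusted p from 0.0507 to 0.388). H1-10 itself stood at -0.07 ± 0.15 between the lines under melphalan, and at -0.45 after cyclic loess normalization, where it was called (adjusted p = 0.0382).

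H2AZ1 and H2AZ2 can be read side by side on each array. H2AZ1 had 11.86 and 11.96 with melphalan and 12.32 and 11.89 without in U266/LR7, against 11.49 and 11.55 with melphalan and 11.96 and 11.57 without in U266/s. H2AZ2 had 10.89 and 10.94 with melphalan and 10.88 and 11.06 without in U266/LR7, against 10.38 and 10.49 with melphalan and 10.70 and 10.35 without in U266/s. Both were higher in U266/LR7 in 4 of 4 matched pairs, by 0.32 to 0.41 for H2AZ1 and 0.18 to 0.71 for H2AZ2. In H2AZ1 the U266/s control array reaches into the range of the U266/LR7 arrays, so the lines overlap, and in H2AZ2 they do not. The genes most like H2AZ1 over the 8 arrays were CMC1, NDUFB6 and POLR2K (Pearson r of 0.976, 0.970 and 0.966), and those most like H2AZ2 were SHLD2, DENR and ZNF90 (0.995, 0.992 and 0.977).

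**Figure D3:**
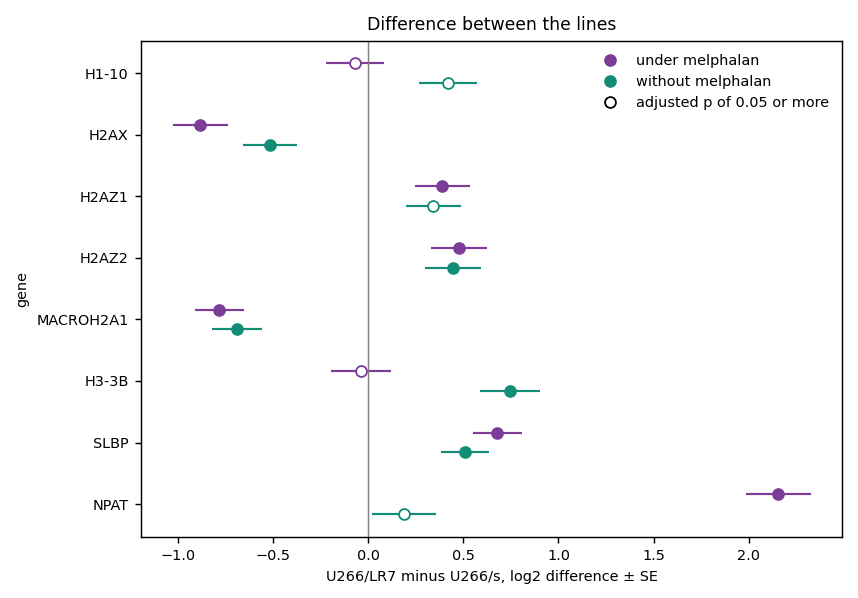
Log2 difference between U266/LR7 and U266/s (horizontal axis, bars are the SE) for each measured member (vertical axis), under melphalan above without melphalan. Filled points passed an adjusted p of 0.05. SLBP and H2AZ2 lie right of 0 and MACROH2A1 and H2AX left of 0 in both states, NPAT lies at 2.15 under melphalan, and H3-3B lies at 0.74 without it.

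The inhibitors of miR-221 and miR-222, averaged over lines and drug states, gave 0 called members of 8 by limma, with 0.0434% of all genes called (0.0271% higher and 0.0163% lower). At an unadjusted p below 0.05 there was 1 member, H1-10, and 6.3% of all genes. H1-10 averaged 9.35 ± 0.25 with inhibitors and 9.72 ± 0.26 without (SD, n = 4 arrays each). Its difference was -0.37 ± 0.11 (adjusted p = 0.548), and it was lower in 4 of 4 pairs, by values from -0.68 to -0.23. The pairs without melphalan gave -0.68 in U266/LR7 and -0.32 in U266/s. The pairs with melphalan may also differ in transfection, because the melphalan-alone arrays carry the tag none. The averages over all pairs share this limit. The other 7 members had mean differences between -0.17 (H2AZ1) and 0.08 (MACROH2A1). The genes most like H1-10 over the 8 arrays were RPS21, LAX1 and QPCT (Pearson r of 0.959, 0.941 and 0.931).

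In both lines the melphalan response across the array varied with the genomic span of genes, and the members' values are given beside it. RefSeq spans were available for 16899 protein-coding genes, which were divided by span into 5 classes of nearly equal size. The median melphalan difference was 0.08 in the shortest class and -0.13 in the longest in U266/LR7, and 0.26 and -0.29 in U266/s. In the shortest and longest classes, 0.651% and 16.5% of genes were called lower in U266/LR7, and 6.66% and 44.1% in U266/s. Called higher were 3.99% and 0.0888% in U266/LR7, and 31.6% and 6.36% in U266/s. H1-10, H2AX, H2AZ1 and H3-3B, with spans of 1.52 to 3.35 kb, belong to the shortest class. Of these H1-10, H2AX and H3-3B rose in U266/s, and H2AZ1 did not. NPAT and MACROH2A1 have spans of 65.4 and 65.5 kb and lie in class 4, counted from the shortest, whose median in U266/s was -0.23. Within that class, 4.14% of genes had a lower melphalan difference than NPAT, and 54.7% a lower one than MACROH2A1. In the shortest class, 93.4% of genes had a lower value than H3-3B, 80.5% than H2AX, 78.7% than H1-10 and 9.76% than H2AZ1. The part of span in these responses was not tested.

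**Figure D4:**
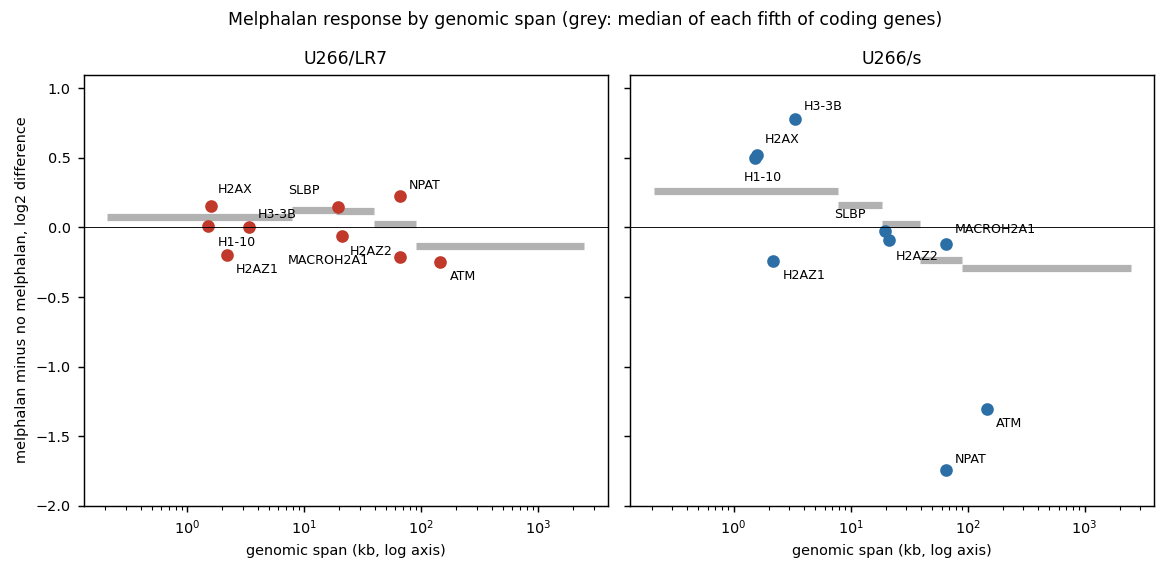
Melphalan difference in log2 units (vertical axis) against genomic span in kb (horizontal log axis) for the measured members and ATM, with U266/LR7 on the left and U266/s on the right. Grey bars give the median of each span class of protein-coding genes. MACROH2A1 and NPAT have nearly equal spans, and their U266/s differences are -0.12 and -1.74.

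Genes that work with the members were followed through 5 lists. Their counts are set beside those of all genes, which were not matched to the lists in span or signal. Among 29 measured genes of histone mRNA synthesis and processing, melphalan in U266/LR7 gave 3 higher and 2 lower (median 0.08), and in U266/s 3 higher and 13 lower (median -0.18). Beside these, 3.02% of all genes were higher and 3.61% lower in U266/LR7, and 18.4% higher and 24.9% lower in U266/s, and the medians of all genes were 0.05 and 0.08. The U266/s median was 0.15 after quantile normalization (8 higher and 11 lower) and 0.05 after cyclic loess (7 higher and 10 lower), so its sign depended on the scaling. The largest called changes in U266/s were -1.495 ± 0.15 for TUT7, which uridylates histone mRNA, -1.34 ± 0.15 for ERI1, the exonuclease that trims its stem-loop, and -1.31 ± 0.14 for CPSF3, the endonuclease of the cleavage step (limma adjusted p of 2.39e-05, 3.55e-05 and 2.63e-05). CASP8AP2 encodes FLASH, a partner of NPAT in histone locus bodies. It fell in U266/s by 0.59 ± 0.17 (adjusted p = 0.0159), stood at 0.50 ± 0.17 in U266/LR7 (adjusted p = 0.112), and had an interaction of 1.09 ± 0.24 (adjusted p = 0.00676). After cyclic loess normalization its U266/s difference was -0.45 (adjusted p = 0.0633).

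CASP8AP2 had 9.20 and 9.38 on the U266/LR7 melphalan arrays, against 8.71 and 8.86 without. It had 7.36 and 7.28 on those of U266/s, against 8.12 and 7.70 without. HINFP, a transcription factor of histone H4 genes that works with NPAT, was not called in U266/LR7 (0.34 ± 0.14, adjusted p = 0.194) or in U266/s (-0.36 ± 0.14, adjusted p = 0.0575). Its interaction was called at 0.70 ± 0.20 (adjusted p = 0.0244), but not after quantile or cyclic loess normalization (adjusted p = 0.237 and 0.165). CDK2, the kinase whose substrate NPAT is, rose in U266/LR7 by 0.53 ± 0.13 (adjusted p = 0.0366) and fell in U266/s by 0.54 ± 0.13 (adjusted p = 0.00648), and was named after its values were seen. The CDK2 call in U266/s was lost after quantile (-0.27) and cyclic loess normalization (-0.25), and that in U266/LR7 after cyclic loess (0.47, adjusted p = 0.0632). LSM11, a subunit of the U7 particle that directs cleavage of the stem-loop end, was not called in U266/LR7 (0.42 ± 0.16) or in U266/s (0.23 ± 0.16). In U266/LR7 the largest called changes were CCNE2, a cyclin E gene, at 0.81 ± 0.21, CTIF, a translation factor, at -0.80 ± 0.15, and ZNF473, a zinc finger protein of the U7 particle, at 0.64 ± 0.15 (adjusted p of 0.0433, 0.0103 and 0.0285). CCNE2 and ZNF473 were not called after quantile or cyclic loess normalization (adjusted p from 0.0555 to 0.0885).

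The 57 measured replication-dependent histone genes, which NPAT and SLBP serve, had 0 higher and 20 lower with melphalan in U266/LR7, and 23 higher and 12 lower in U266/s. Their medians were -0.48 and 0.34. Of all genes 3.02% were higher and 3.61% lower in U266/LR7, and 18.4% higher and 24.9% lower in U266/s, so the count of lower genes in U266/s is near the background. In U266/s more of these genes rose than fell under each of the 3 other normalizations too (22 to 30 higher, 9 to 11 lower), and in U266/LR7 18 to 21 fell and 0 rose. The interaction was called as higher in 3 of 57 and lower in 30, against 17.9% and 5.99% of all genes. Many of these genes are near-identical copies and their signals may be shared between clusters. The largest called differences were -2.47 ± 0.15 (H2BC14), -1.78 ± 0.17 (H2AC20) and -1.60 ± 0.21 (H4C2) in U266/LR7, and -2.86 ± 0.18 (H1-5), 2.69 ± 0.31 (H2AC14) and 2.19 ± 0.23 (H2AC12) in U266/s. Between the lines without melphalan, H1-5 was lower in U266/LR7 by -4.35 ± 0.18 and H3C8 by -2.36 ± 0.15. H1-5 in U266/LR7, and H2AC14 in U266/s without melphalan, had means below the lower quartile of gene means, so the sizes of those differences are limited by the low end of the array.

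Of 36 genes for chaperones and remodellers of variant histones, melphalan in U266/LR7 gave 1 higher and 0 lower (median 0.02), and in U266/s 2 higher and 17 lower (median -0.36), against 6.62% of all genes called in U266/LR7, and 18.4% higher and 24.9% lower in U266/s. After quantile normalization the U266/s counts were 8 higher and 13 lower (median -0.12). The largest called differences in U266/s were -2.46 ± 0.18 for CHD1, a remodeller linked to H3.3 deposition, -1.41 ± 0.15 for YEATS4, a subunit of the H2A.Z-depositing complexes, and -1.36 ± 0.16 for ASF1A, an H3-H4 chaperone (limma adjusted p of 3.82e-06, 2.95e-05 and 5.96e-05). ATRX fell in U266/s by 1.36 ± 0.24 (adjusted p = 0.000989), whereas its partner DAXX (0.07 ± 0.18) and HIRA (0.27 ± 0.14, adjusted p = 0.145) were not called. ANP32E, which removes H2A.Z, fell by 0.51 ± 0.18 (adjusted p = 0.0366), a call lost after median centring, quantile and cyclic loess normalization (adjusted p from 0.0525 to 0.380). SRCAP (-0.09 ± 0.13) and EP400 (-0.29 ± 0.16) were not called. The 1 gene higher with melphalan in U266/LR7 was SPTY2D1, at 0.68 ± 0.17 (adjusted p = 0.0413, and 0.0724 after quantile and 0.0961 after cyclic loess normalization). Between the lines without melphalan, CHAF1B, a subunit of the chaperone CAF-1, was higher in U266/LR7 by 1.19 ± 0.13 and HIRA was lower by -1.06 ± 0.14.

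A list of 31 genes linked to H2AX held its kinases, its phosphatases, its readers and factors that act with them, all counted together. In U266/LR7 melphalan gave 1 higher and 3 lower (median -0.12). In U266/s it gave 2 higher and 22 lower (median -0.87), while H2AX itself rose there. All genes had 3.02% higher and 3.61% lower in U266/LR7, and 18.4% higher and 24.9% lower in U266/s. The U266/s counts were 3 higher and 20 to 22 lower under the other normalizations. The largest called differences in U266/s were -1.9996 ± 0.18 for NBN, a subunit of the break-sensing complex, -1.92 ± 0.17 for PPP4R2, a subunit of an H2AX phosphatase, and -1.83 ± 0.17 for EYA1, a tyrosine phosphatase of H2AX (limma adjusted p of 1.25e-05, 8.64e-06 and 1.22e-05). MDC1, which binds phosphorylated H2AX, fell in U266/s by 0.62 ± 0.15 (adjusted p = 0.00544), a call lost after quantile and cyclic loess normalization (adjusted p = 0.103 and 0.0542). Of the ubiquitin ligases recruited next, RNF8 was not called (-0.27 ± 0.13, adjusted p = 0.113), and RNF168 rose in U266/LR7 by 0.72 ± 0.17 and in U266/s by 0.47 ± 0.17 (adjusted p of 0.0291 and 0.0408). The first of these was not called after cyclic loess normalization (adjusted p = 0.0538). In U266/LR7 the differences of EYA2 and BABAM2 were called at -0.999 ± 0.15 and -0.82 ± 0.15. Between the lines without melphalan, CHD1L was lower in U266/LR7 by -1.04 ± 0.15 and EYA1 by -5.24 ± 0.17. The EYA1 values of U266/LR7 lay below the lower quartile of gene means, so the size of the line difference is limited in the same way.

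Of 9 other variant histone genes with a cluster, 0 were called in U266/LR7 (0 of 9 by limma's adjusted p, median -0.09) and 3 rose in U266/s (median 0.37), against 6.62% of all genes called in U266/LR7 and 18.4% higher in U266/s. The count in U266/s was 5 after median centring and after quantile normalization. The 3 were H2AJ, a replacement H2A gene, by 1.046 ± 0.15, H3-5 by 0.83 ± 0.13 and H1-7, a testis linker histone gene, by 0.48 ± 0.14 (limma adjusted p of 0.000227, 0.000457 and 0.0160). H3-5 is a near-identical retrocopy of H3-3B, and its probes may share signal with that gene. MACROH2A2 was not called in U266/LR7 (0.11 ± 0.16) or in U266/s (0.31 ± 0.16, adjusted p = 0.127). Among myeloid markers, 1 of 4 measured rose with melphalan in U266/LR7 and 2 of 4 in U266/s, with summed log2 signals of 22.2 to 23.2 over the U266/LR7 arrays and 23.1 to 26.6 over those of U266/s. In U266/s 3 of the 4 had means above the lower quartile of gene means, and in U266/LR7 2 of the 4. CD14 had 7.77 and 7.94 on the U266/s melphalan arrays, against 6.26 and 6.50 without (1.47 ± 0.14, adjusted p = 1.76e-05), and it also rose in U266/LR7 (0.55 ± 0.14, adjusted p = 0.0449). MPO had 7.45 and 6.94 on the U266/s melphalan arrays, against 5.89 and 6.11 without (1.197 ± 0.17, adjusted p = 0.000226). LYZ lay below that quartile in both lines. Their part in the responses was not tested.

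**Figure D5:**
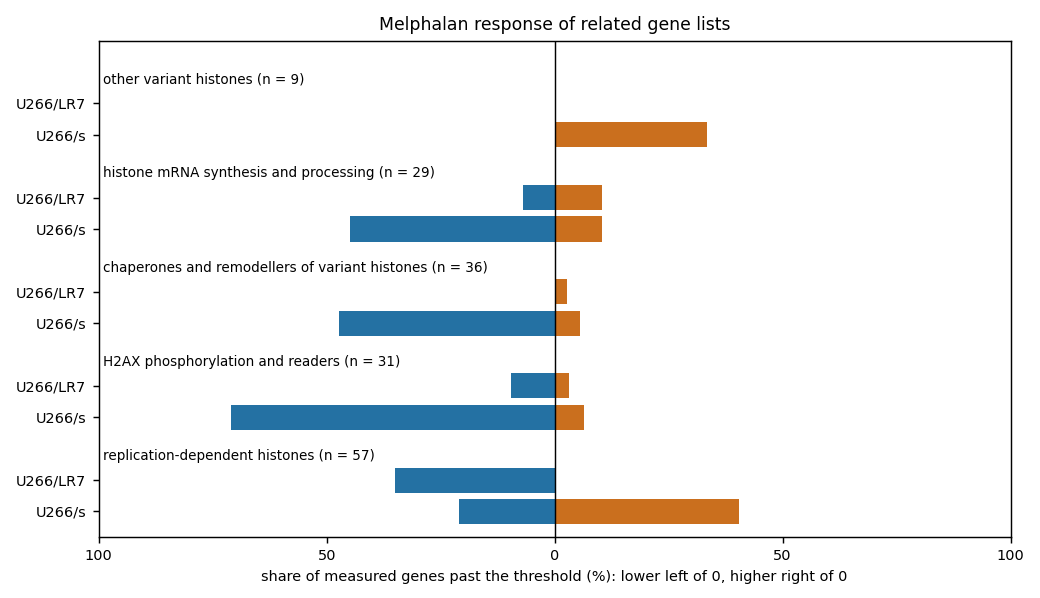
Share of the measured genes of each list (horizontal axis, in percent) that were lower (blue, left of 0) or higher (orange, right of 0) with melphalan at an adjusted p below 0.05, with U266/LR7 above U266/s for each list. The blue bars are longer in U266/s for mRNA processing, chaperones and the H2AX list, which holds its phosphatases too. Replication-dependent histones have a blue bar alone in U266/LR7 and both colours in U266/s.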

How the data were processed

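Per the submitters' processing notes, the authors used Affymetrix Expression Console and RMA to make the log2 values; their versions, settings and build are not stated there. The deposited table holds 33297 transcript clusters on 8 arrays and 0 columns without a sample. In the platform annotation 19460 clusters have 1 symbol, 1754 several and 12083 none there; symbols were updated by gene ID (19429 matched). The brightest cluster stood for each of 769 genes with several, which left 18417 genes. Limma 3.58.1 (R 4.3.3) was fitted with an intensity trend and 3 residual degrees of freedom, and the script was tested on simulated data. Members and lists were chosen with earlier results of these data known. Named list genes were the 3 largest called changes with melphalan within each line, the 2 largest between lines without melphalan, and a fixed set, of which CENPA had no cluster of its own; 1 item is not reported here. Alternatives were 3 normalizations, a signal filter, an untrended variance, 2 cluster rules, 3 other designs and each array left out. The number of arrays limits the precision.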

Additional observations from a re-analysis of the deposited data

Results flagged for a closer look

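The melphalan response of 2 members differed between the lines by limma's interaction term. NPAT had a melphalan difference of 0.22 in U266/LR7, which was not called, and of -1.74 in U266/s, which was, and the first minus the second was 1.97 log2 units (adjusted p = 0.000287). This interaction was called in all 9 alternative settings and in all 8 fits that leave out an array, with values from 1.69 to 2.20. For H3-3B the interaction was -0.78 (adjusted p = 0.0260), called in 8 of 9 alternative settings and in 4 of 8 fits that leave out an array. No condition holds enough arrays for a test of single outlying arrays.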

How the results depend on the processing

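The fall of NPAT in U266/s kept its call in all 9 alternative settings (-1.74 to -1.54) and in all 8 fits that leave out an array (-1.97 to -1.51). The H3-3B rise in U266/s, the MACROH2A1 differences between the lines in both states, and the NPAT, SLBP and H2AX differences under melphalan also kept their calls in all of these. The SLBP difference under melphalan ran from 0.32 to 0.68 over the 9 alternative settings, with limma adjusted p up to 0.0466, so its size depended on the setting. No value of a called member changed sign. The count of members with a called interaction was 4 with quantile normalization and 4 with cyclic loess (H1-10 and H2AX joined, 1 higher and 3 lower), and 1 with all transcript clusters tested. When arrays were left out, this count ran from 1 to 3, the count for melphalan in U266/s from 2 to 4, and the count between lines without melphalan from 1 to 5. The cause of these shifts was not tested. H1-10 was called between lines without melphalan after median centring, among genes above the median signal and without the intensity trend (adjusted p = 0.0376, 0.0399 and 0.0497), and H2AZ1 with all two-way interactions and with transfection as 3 levels (0.0483 and 0.0205). With transfection as 3 levels, NPAT in U266/s stood at -1.61. Over all genes, limma called 1220 for melphalan in U266/LR7, against 422 when all transcript clusters were tested, 679 with transfection as 3 levels and 306 or 250 without a U266/LR7 melphalan array (alone or combined). For melphalan in U266/s it called 7984, against 4258 without the U266/s control array. The interaction had 4394 genes, against 2552 without the U266/LR7 melphalan and 2443 without the U266/s control array. Under melphalan 9529 genes differed between the lines, against 6207 above the median signal and 6152 without the U266/LR7 melphalan array. Of these counts, 422 came from 33297 clusters tested, and 6207 from only those of the 18417 genes above the median signal. Neither can be compared with the main fit as a share of the genes tested. For the inhibitors the count was 8, and 0 to 20 elsewhere, with 0 members called in any setting. No pairing by replicate number was possible, because the labels give none and each condition has 1 array. Pairs of arrays matched for treatment are given as single differences and were not tested as pairs.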
